A study of Mus musculus with 24 samples.

Results

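The 10 genes described here, *Igf2*, *H19*, *Meg3*, *Dlk1*, *Peg3*, *Plagl1*, *Mest*, *Grb10*, *Ndn* and *Igf2r*, are imprinted genes of growth control and were chosen by name. All 10 were among the 51912 genes of the deposited table and among the 16454 genes that could be tested. They were measured by bulk RNA sequencing of dissected mouse archicortex (ARK), the part of the embryonic forebrain that forms the hippocampus and holds the cortical hem, at E12.5 and E13.5. The study compared embryos in which *Sox9* was deleted by one of 2 Cre lines with controls, to separate the regions in which SOX9 acts.

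All 24 libraries came from a mixed C57BL/6J;MF1 background and all embryos, controls included, carried a Cre. At E13.5 there were 4 *Sox9* fl/fl;*Sox1Cre* mutants (A1 to A4), 4 *Sox9* +/+;*Sox1Cre* controls (A5 to A8), 4 *Sox9* fl/fl;*NestinCre* mutants (A17 to A20) and 4 *Sox9* +/+;*NestinCre* controls (A21 to A24). At E12.5 there were 4 *Sox9* fl/fl;*Sox1Cre* mutants (A9 to A12) and 4 *Sox9* +/+;*Sox1Cre* controls (A13 to A16). Recombination by *Sox1Cre* starts early and covers all of the archicortex, hem included. *NestinCre* starts later and spares most of the hem, while the neighbouring neuroepithelium of the future dentate gyrus is included. No label says whether libraries of a group came from separate litters, so p-values measure the spread between these libraries.

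An imprinted gene is transcribed mainly from the copy inherited from 1 parent, through DNA methylation marks set in egg or sperm. In most tissues, but not in every cell type, *Igf2*, *Dlk1*, *Peg3*, *Plagl1*, *Mest* and *Ndn* are known as paternally expressed. *H19*, *Meg3* and *Igf2r* are likewise known as maternally expressed. *Grb10* is maternally expressed in most tissues and paternally in neurons. In the embryo many of these genes promote or restrain growth through the insulin-like growth factor (IGF) pathway, and several are abundant in the meninges and vessels that surround the brain. The values do not separate the parental copies.

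Positions are those of GRCm38. *Igf2* (ENSMUSG00000048583, chr7:142650766-142666816, minus strand) and *H19* (ENSMUSG00000000031, chr7:142575529-142578143, minus strand) lie 72.6 kb apart. *Dlk1* (ENSMUSG00000040856, chr12:109452823-109463336, plus strand) and *Meg3* (ENSMUSG00000021268, chr12:109541001-109571726, plus strand) lie 77.7 kb apart. *Peg3* (ENSMUSG00000002265, chr7:6703892-6730431, minus strand) and *Ndn* (ENSMUSG00000033585, chr7:62346569-62350262, plus strand) are elsewhere on chromosome 7. The others are *Plagl1* (ENSMUSG00000019817, chr10:13060504-13131694, plus strand), *Mest* (ENSMUSG00000051855, chr6:30723547-30748465, plus strand), *Grb10* (ENSMUSG00000020176, chr11:11930508-12038683, minus strand) and *Igf2r* (ENSMUSG00000023830, chr17:12682406-12769664, minus strand). Exons of *Mest* overlap those of *Copg2* on the opposite strand, which averaged 2615 normalized counts against 18002 for *Mest*. Exons of *Igf2* overlap those of the antisense gene *Igf2os*, at 73.6. The strand setting of the counting is not given in the sources used here, so reads of such partners may be shared.

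The promoters of the 4 genes on which the comparisons below turn most are shown from 250 bases before to 50 bases after the start, in RefSeq coordinates of GRCm38.p6. *Mest* is at chr6:30737800-30738099 (plus strand), *Grb10* at chr11:12037371-12037670 (minus strand), *Ndn* at chr7:62348027-62348326 (plus strand) and *Peg3* at chr7:6730370-6730669 (minus strand). Capitals mark, on either strand, the GC box GGGCGG, the palindrome GGGGCCCC bound by PLAGL1 and the SOX core ACAAT.
Mest: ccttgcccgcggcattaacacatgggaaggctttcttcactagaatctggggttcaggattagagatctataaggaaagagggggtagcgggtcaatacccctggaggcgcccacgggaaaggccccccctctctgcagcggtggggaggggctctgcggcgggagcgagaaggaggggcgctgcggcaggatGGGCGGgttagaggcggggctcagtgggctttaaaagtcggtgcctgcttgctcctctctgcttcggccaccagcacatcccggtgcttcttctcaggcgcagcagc
Grb10: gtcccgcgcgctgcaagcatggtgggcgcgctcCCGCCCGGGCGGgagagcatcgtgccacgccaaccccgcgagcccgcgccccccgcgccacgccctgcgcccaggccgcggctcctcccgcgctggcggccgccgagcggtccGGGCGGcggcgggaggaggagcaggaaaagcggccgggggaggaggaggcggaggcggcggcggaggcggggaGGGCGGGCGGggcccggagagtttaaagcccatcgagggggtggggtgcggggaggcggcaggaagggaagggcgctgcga
Ndn: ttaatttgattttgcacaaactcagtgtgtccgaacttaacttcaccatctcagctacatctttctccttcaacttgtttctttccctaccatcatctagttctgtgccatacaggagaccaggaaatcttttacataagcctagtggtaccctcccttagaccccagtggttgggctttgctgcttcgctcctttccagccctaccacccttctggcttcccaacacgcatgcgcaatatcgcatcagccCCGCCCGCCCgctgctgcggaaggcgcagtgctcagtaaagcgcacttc
Peg3: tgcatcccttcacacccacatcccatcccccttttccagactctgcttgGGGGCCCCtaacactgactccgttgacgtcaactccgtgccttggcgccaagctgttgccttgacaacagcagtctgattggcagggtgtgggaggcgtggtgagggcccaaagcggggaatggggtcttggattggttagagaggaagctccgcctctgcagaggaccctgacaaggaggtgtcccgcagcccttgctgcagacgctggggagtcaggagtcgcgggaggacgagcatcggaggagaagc

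Of the 10 genes, 9 matched an entry of the RefSeq promoter table and *H19* did not. The *Grb10* promoter shown, 1 of 2 entries, held 45 CpG dinucleotides (9 in the other, which held no GC box), that of *Mest* 17, that of *Peg3* 13 and that of *Ndn* 11, against a median of 7 over 32851 promoters of the same length. *Peg3* held the palindrome GGGGCCCC, which 1.08% of all promoters hold. *Grb10* held 5 GC boxes, some of which overlap, and 35.7% of all promoters hold at least 1. *Mest*, of whose 3 entries 1 is shown, held 1 GC box and *Ndn* 2 overlapping ones. The SOX core, found in 10192 of the 32851 promoters, was in none of these 4 windows and in 2 of the 4 *Igf2* windows, which are not shown. A match is a description of the letters and not a binding site.

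Between 16163560 and 49445219 reads fell on genes per library (median 23016925). *Meg3* was counted from 46 to 284 reads and *Dlk1* from 123 to 1125 reads per library, whereas each of the other 8 genes had at least 2181. *Sox9*, the deleted gene, was read at 3563, 2828, 3384 and 3677 normalized counts in the *Sox1Cre* mutants at E13.5 and at 5218, 5912, 5449.6 and 5731 in their controls. At E12.5 it was at 2785, 1733, 2593 and 1928 in mutants and at 4391, 5265, 4237 and 4194 in controls. In the *NestinCre* line it was at 3089, 2997, 3083 and 3369 in mutants and at 5636, 4979, 4586 and 5406 in controls. All mutants lay below all of their controls, so *Sox9* went with the labels in each library.

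Some libraries stood apart before any comparison. A1, an E13.5 *Sox1Cre* mutant, had the lowest summed normalized counts of 5 lists of markers, among them 12 meningeal genes (18129, against 25621 to 56354 in the other libraries) and 8 hem genes (12694, against 15271 to 56981). A18, a *NestinCre* mutant, had 571 over 6 ventral telencephalic markers, against 15.4 to 85.2 elsewhere, although *Gsx2*, *Dlx1* and *Nkx2-1* were too low to be tested. *Xist*, which is transcribed in female cells, was at 3526 or more in 11 libraries and at 6.41 or less in 13. All 4 *Sox1Cre* controls at E12.5 were high in *Xist* and all 4 at E13.5 were low, so that age and sex cannot be told apart in them. The mutants of that line had 2 high libraries at each age (A2 and A3, A10 and A11). Archicortical progenitor markers, led by *Vim*, summed to between 72134 and 86133 in every library.

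Divided by exon length, *Mest* was the most abundant of the 10 transcripts, with a mean of 4563 normalized counts per kb over 24 libraries. *H19* (4019), *Grb10* (2866) and *Igf2* (2569) followed, and all 4 stood above the 97th percentile of the genes tested. *Ndn* (1024), *Plagl1* (775), *Peg3* (692) and *Igf2r* (568) lay in the middle. *Dlk1* was at 61.7 and *Meg3* at 6.77 normalized counts per kb, the latter at percentile 10.5. Exon length is that of all annotated exons of a gene merged, 18089 bases for *Meg3*. Levels per kb are therefore understated where the transcripts present are shorter. Across libraries, *Grb10* varied least, with the highest value 1.46 times the lowest, and *Dlk1* most, with a ratio of 8.78. At E13.5 *H19* was above *Mest* per kb in 3 of the 4 groups, among them the *Sox1Cre* controls (3866 against 3095), so their order over all libraries rests on E12.5. The order of *Grb10* and *Igf2*, and that of *Plagl1* and *Peg3*, is within the spread between libraries.

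**Figure D1:**
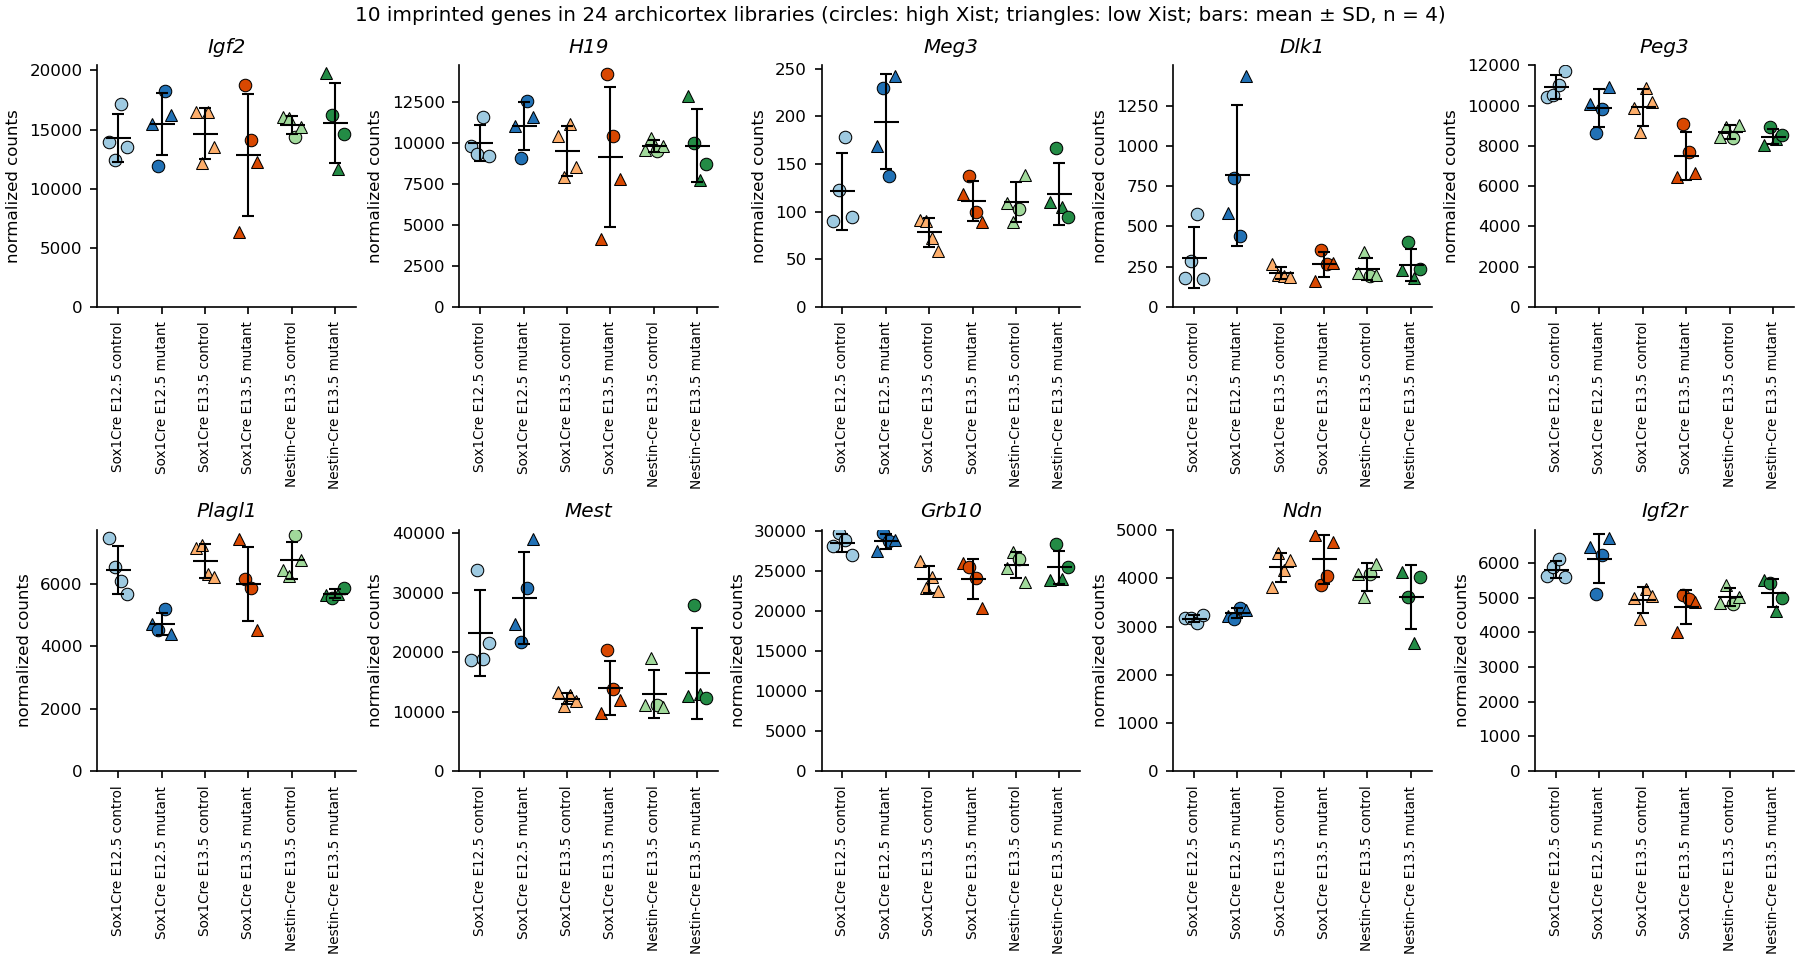
Normalized counts of the 10 genes in each of 24 libraries, with groups on the horizontal axis. Points are libraries (circles, high *Xist*; triangles, low *Xist*) and bars are mean ± SD of 4 libraries. *Mest* is lower at E13.5 than at E12.5 in the *Sox1Cre* groups, *Ndn* is higher, and A1 gives the lowest *Igf2* and *H19* points.

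IGF2 is the growth factor of this set. In *Sox1Cre* mutants at E13.5 *Igf2* was at 6302 (A1), 18775 (A2), 14118 (A3) and 12223 (A4) normalized counts, and in their controls at 16508 (A5), 12157 (A6), 16459.5 (A7) and 13499.6 (A8). The mutants thus spanned the whole range of the controls and beyond, on both sides. The log2 difference was -0.28 (SE 0.226, limma adjusted p = 0.690). On leaving out a library it went from -0.50 to 0.03, the latter without A1. At E12.5 it was 0.11 (adjusted p = 0.872), with means of 15456 ± 2640 in mutants and 14269 ± 2046 in controls (SD, n = 4). Leaving out 1 library gave 0.02 to 0.23 at E12.5. In the *NestinCre* line the log2 difference was -0.01 (95% interval -0.48 to 0.46), which leaves changes of up to that size undetectable.

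*H19*, a long noncoding RNA that in most tissues is expressed from the copy that keeps *Igf2* silent, gave nearly the same profile. Its log2 differences between mutants and controls were -0.18, 0.14 and -0.02 in the 3 comparisons, with adjusted p values of 0.845, 0.837 and 1. At E13.5 in the *Sox1Cre* line it was 0.16 without A1 and -0.44 without A2. It was lowest in A1 (4154) and highest in A2 (14229). Once group means were removed, log2 *H19* and log2 *Igf2* varied together over the 24 libraries, which share their dissection and depth, with Pearson's r of 0.98. The ratio of *H19* to *Igf2*, each per kb, stayed between 1.38 and 1.77.

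Of all genes tested, *H19* was the most like *Igf2* by this measure, followed by *Ahnak* (r = 0.97), *Anxa6* (0.96), *Rcsd1* (0.96) and *Adgra2* (0.96). Those most like *H19* were *Igf2*, *Piezo1* (0.97), *Ahnak* (0.96), *Utrn* (0.96) and *Anxa6* (0.95). Both also followed the mean log2 level of the 12 meningeal markers, of which the collagen gene *Col3a1* was the most abundant, with r of 0.92 for either gene. With 13 endothelial and pericyte markers, led by *Kdr*, r was 0.87 for *Igf2* and 0.81 for *H19*. No marker of either list was at 0. Neither *Igf2* nor *H19* passed between genotypes in any of the 10 other planned settings, the mean of the meningeal markers as a covariate among them. The part of meninges and vessels in the level of the 2 genes was not itself tested. In whole tissue fewer cells of a type cannot be told apart from less RNA per cell.

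**Figure D2:**
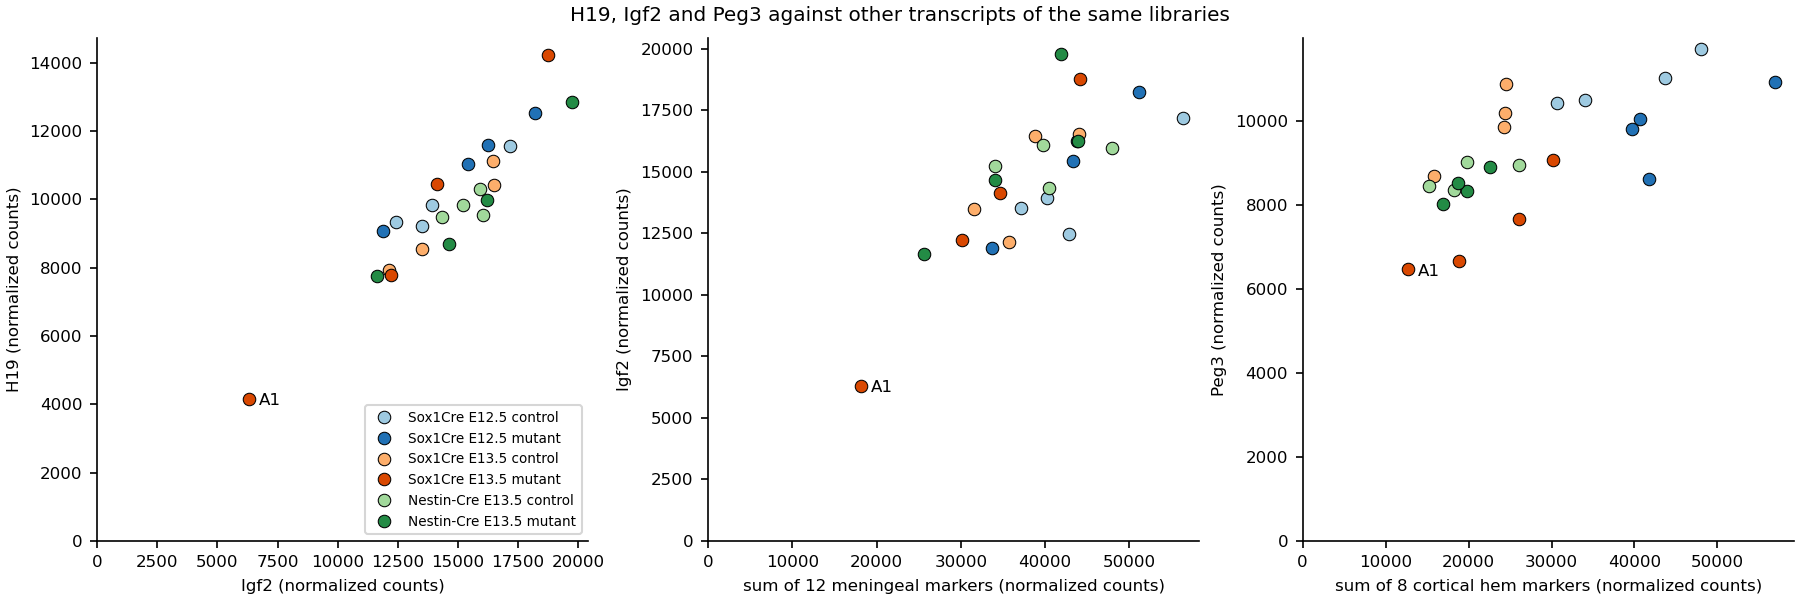
Normalized counts of *H19* against *Igf2* (left), of *Igf2* against the sum of 12 meningeal markers (middle) and of *Peg3* against the sum of 8 cortical hem markers (right). Each point is 1 library, coloured by group. *H19* and *Igf2* lie close to a line, and A1, marked, is lowest in *Igf2*, *H19*, *Peg3* and in both sums.

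IGF2R, the receptor that carries IGF2 to lysosomes for degradation, did not pass the test between genotypes in any comparison. Its mean was 4730 ± 494 in E13.5 *Sox1Cre* mutants and 4930 ± 371 in controls (SD, n = 4), a log2 difference of -0.06 (95% interval -0.24 to 0.11). GRB10 is an adaptor that dampens signalling from the insulin and IGF1 receptors. *Grb10* differed little between genotypes, with log2 differences of -0.00, 0.01 and -0.02 and intervals within 0.17 of 0 on either side. *Ndn*, which encodes the growth suppressor necdin of postmitotic neurons, gave differences of 0.05, 0.05 and -0.18, none past the test. In the *NestinCre* line the value was -0.04 without A19, which was at 2668 against 3607 to 4126 in the other mutants.

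Among the transcription factors is *Peg3*, the single one of the 10 genes called between genotypes by limma. PEG3 is a zinc finger protein. In E13.5 *Sox1Cre* mutants it was at 6473 (A1), 9084 (A2), 7671 (A3) and 6673 (A4), and in controls at 9855 (A5), 8706 (A6), 10884 (A7) and 10193 (A8). A1, A3 and A4 lay below every control, and A2 lay above A6, the lowest control. A2 and A3 were high in *Xist* and the other 6 libraries low. The mean fell from 9910 ± 909 to 7475 ± 1194 (SD, n = 4), a log2 difference of -0.42 (SE 0.088, limma adjusted p = 0.0206). An exact two-sided permutation test of the 4 against 4 libraries gave p = 0.0571, where 0.0286 is the smallest possible. Without A2 and A3 the log2 difference was -0.59 (limma adjusted p = 0.00270), and -0.45 with log2 *Xist* as a covariate (0.0317). In this comparison 0.924% of all genes tested were called, and 0.559% were called lower in mutants, against 1 of the 10. None of the 10 genes had groups free of overlap, against 5.06% of all genes.

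At E12.5 *Peg3* was at 10067, 8634, 9824 and 10944 in mutants and at 10436, 10518, 11041 and 11729 in controls, a log2 difference of -0.15 (adjusted p = 0.471). In the *NestinCre* line it differed by -0.04 (adjusted p = 1). Leaving out 1 library gave -0.20 to -0.09 at E12.5 and -0.07 to -0.02 in the *NestinCre* line. The difference between the change in the *Sox1Cre* and the *NestinCre* line was -0.37 (SE 0.125, adjusted p = 0.324), and that between E13.5 and E12.5 was -0.26 (adjusted p = 0.668), so the changes were not shown to differ. Between the lines limma called 0.0425% of all genes. It called 0 of the 10, and edgeR and DESeq2 also called 0 of the 10. In limma *Peg3* alone of the 10 had an unadjusted p under 0.05, as had 8.27% of all genes. With group means removed, *Peg3* varied with the hem markers, led by *Wnt8b*, with r of 0.80 over 24 libraries, which share their dissection and depth, and with r of -0.66 for neuronal and -0.61 for progenitor markers. The hem sum itself was 12694, 30198, 26108 and 18852 in the E13.5 mutants and 24316.5, 15785, 24483 and 24370.5 in controls. The neuronal sum was 47798, 30229.6, 33857 and 48008 in these mutants and 30774, 46672, 35886 and 43952.5 in controls. The part of either in the *Peg3* result was not tested. The call was lost without A4, A7 or A8, with log2 differences of -0.37, -0.37 and -0.40 and adjusted p of 0.0861, 0.0787 and 0.0530. It was also lost with quantile normalization (-0.36, adjusted p = 0.0910) and in the compared libraries alone (-0.42, adjusted p = 0.347).

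PLAGL1 is a zinc finger factor that binds a number of other imprinted genes and restrains proliferation. In E12.5 *Sox1Cre* mutants *Plagl1* was at 4715 (A9), 4523 (A10), 5210.4 (A11) and 4395 (A12), below all controls, which were at 7486 (A13), 6549 (A14), 6098 (A15) and 5685 (A16). Mutants lay below all controls in this comparison for 5.93% of all genes. The log2 difference of -0.45 (SE 0.108) missed the threshold in limma (adjusted p = 0.0582), and the exact permutation test gave the smallest possible p of 0.0286. In the *NestinCre* line the mutants, at 5633, 5543, 5675 and 5883, again lay below the controls, at 6439, 6254, 7582 and 6754. There the log2 difference was -0.25 (adjusted p = 0.721, exact permutation p = 0.0286), and 2.8% of all genes had all mutants below all controls. At E13.5 in the *Sox1Cre* line the groups overlapped (log2 difference -0.19, adjusted p = 0.534), with A1 at 7431 above every control and A2, A3 and A4 below every control. It was -0.30 without A1 and -0.06 without A4.

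DLK1 is a membrane protein related to Notch ligands, and *Dlk1* had the largest difference of the 10 genes between genotypes. It was at 586 (A9), 803 (A10), 443 (A11) and 1434 (A12) in E12.5 *Sox1Cre* mutants and at 179 (A13), 285 (A14), 579 (A15) and 176 (A16) in controls. Control A15 lay above mutant A11, and the other controls lay below all mutants. The log2 difference was 1.46 (SE 0.363), a 2.74-fold ratio, with an adjusted p of 0.0693 in limma and an unadjusted p of 0.0571 in the exact permutation test. In all, 0 of the 10 genes were called at E12.5 in limma, where 0.723% of all genes were. In limma 3 had an unadjusted p under 0.05, as had 2217 of the 16454 genes tested. Under the other planned settings, edgeR and DESeq2 among them, 76 to 294 of all genes were called at this age. DESeq2 called 2 of the 10, *Dlk1* and *Plagl1*, and edgeR 0. In limma both passed without A11, and *Dlk1* passed without A15. At E13.5 *Dlk1* differed by 0.28 in the *Sox1Cre* line and by 0.12 in the *NestinCre* line. The first was 0.49 without A1 and 0.13 without A2, and the second was -0.11 without A18 and 0.31 without A22. The change at E13.5 minus that at E12.5 was -1.17 (SE 0.513, adjusted p = 0.636).

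*Meg3*, the noncoding RNA of the *Dlk1* domain, was 1.62-fold higher in E12.5 *Sox1Cre* mutants (195 ± 49.9) than in controls (121 ± 40.3; SD, n = 4), with an adjusted p of 0.192. At E13.5 the ratio was 1.42 (adjusted p = 0.405) in this line and 1.07 (adjusted p = 1) in the *NestinCre* line, where the log2 difference of 0.09 was -0.08 without A18 and 0.21 without A24. The groups overlapped in all 3 comparisons. The genes whose libraries varied most like *Meg3* were *Tcf7l2* (r = 0.77), the neighbouring imprinted RNA *Rian* (0.73), *Srgap1* (0.71), *Anln* (0.70) and *Slc9a5* (0.69). *Rian* itself differed by 0.42 at E12.5 and 0.37 at E13.5 on the log2 scale, with adjusted p of 0.256 and 0.370.

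MEST is an enzyme of the α/β hydrolase family found in growing mesoderm and brain. *Mest* differed between genotypes by 0.15, 0.33 and 0.29 on the log2 scale, with adjusted p of 0.900, 0.619 and 0.992. In the *Sox1Cre* line at E13.5 it was -0.05 without A2 and 0.30 without A1, and at E12.5 it was 0.18 without A12 and 0.53 without A14. In the *NestinCre* line limma called 0.0669% of all genes and 0 of the 10, and edgeR and DESeq2 also called 0 of the 10. *Plagl1* alone of the 10 had an unadjusted p under 0.05 in limma, as had 6.47% of all genes. The value of *Mest* in this line rested on A18 and A22. *Mest* was at 27965 in A18, and at 12650, 13007 and 12225 in the other 3 mutants. Without A18 the log2 difference was 0.00. Control A22 was at 18976 and the other controls between 10761 and 11117, and without A22 it was 0.49 (adjusted p = 0.827). No member was called by limma between the 2 lines' controls at E13.5 either, where 0.243% of all genes were. By an unadjusted p under 0.05 in limma 2 were, *Meg3* and *Peg3*, as were 10% of all genes. After adjustment edgeR and DESeq2 called 0 of the 10.

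**Figure D3:**
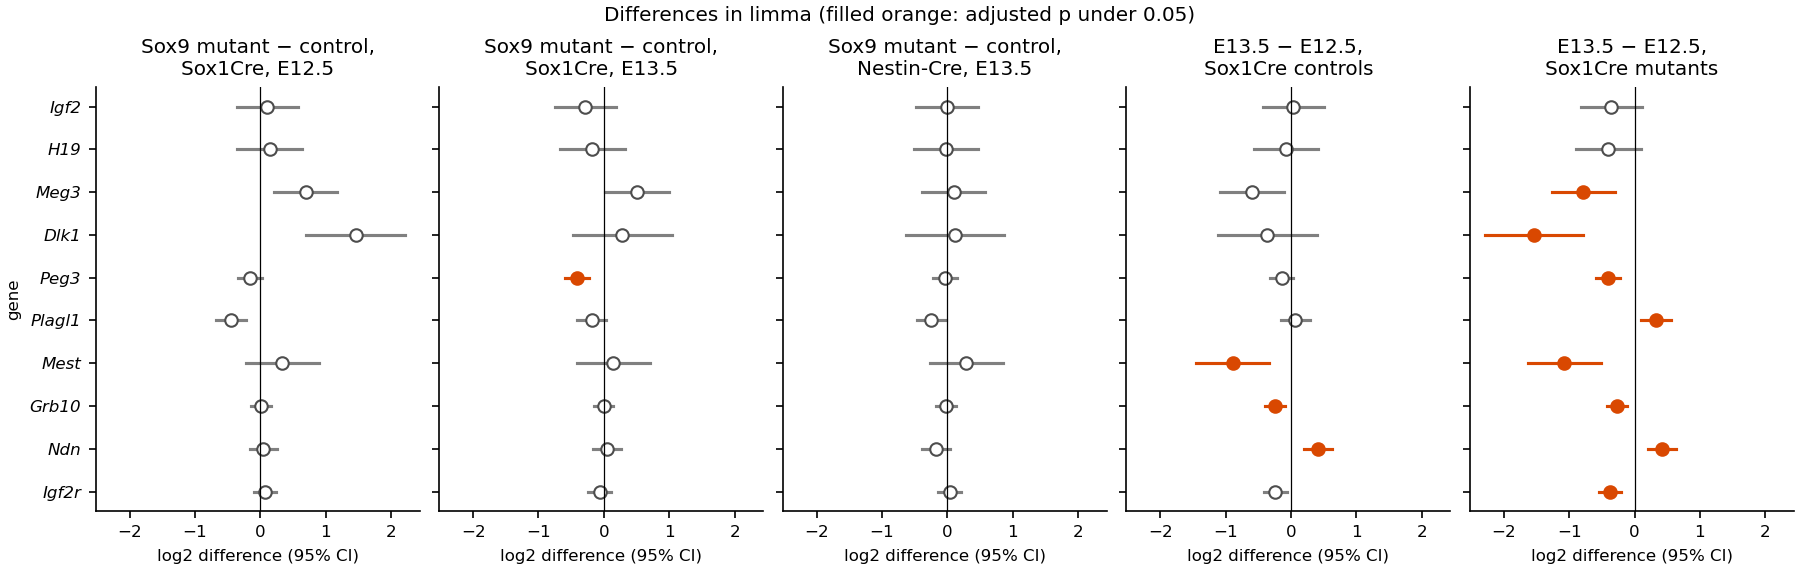
Log2 differences of the 10 genes with 95% intervals from limma, in 3 comparisons of *Sox9* mutants with controls and 2 of E13.5 with E12.5. Filled orange points passed an adjusted p of 0.05. *Peg3* is filled once among genotypes, and *Mest*, *Grb10* and *Ndn* are filled in both age comparisons.

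The comparison of ages asked how the same genes stood at E13.5 and E12.5 within the *Sox1Cre* line. It uses the same mutants and the same controls as the genotype comparisons, whereas the 2 age comparisons share no library. In mutants 8 of the 10 genes were called, 6 lower and 2 higher at E13.5, where 25.9% of all genes were called, 12.1% lower and 13.8% higher. In controls 3 were called, *Mest* and *Grb10* lower and *Ndn* higher, against 11.5% of all genes, 5.17% lower and 6.33% higher. In controls the calls of all 3 were lost without A6, those of *Mest* and *Grb10* without A7, A8 or A14, that of *Mest* without A16 and that of *Grb10* without A13 or A15. The median log2 difference of the 10 genes was -0.39 in mutants and -0.19 in controls, where the medians of all genes tested were -0.01 and -0.00.

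In controls age cannot be told apart from sex for any of the genes. *Mest* was lower at E13.5 than at E12.5 in both genotypes. It was at 24816, 21671, 30858 and 39097 in E12.5 mutants and at 9731, 20314, 13890 and 11993 at E13.5, and in controls at 18708, 33841, 18855 and 21609 at E12.5 and at 13226, 11000.2, 12803 and 11816 at E13.5. Every E13.5 library lay below every E12.5 library of its genotype, which held for 10.8% of all genes in mutants and 8.74% in controls. The log2 differences were -1.08 (SE 0.268, adjusted p = 0.00604) in mutants and -0.89 (adjusted p = 0.0361) in controls. The exact permutation test gave 0.0286 in each.

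*Ndn* went the other way. It was at 3223, 3150.4, 3386 and 3339 in E12.5 mutants and at 4900.2, 3871, 4056 and 4749 at E13.5. In controls it was at 3182, 3168, 3068 and 3243 at E12.5 and at 3819.8, 4532, 4182 and 4369.6 at E13.5. All E13.5 libraries were above all E12.5 libraries, by 0.42 (adjusted p = 0.00507) in mutants and 0.41 (adjusted p = 0.0130) in controls, with an exact permutation p of 0.0286 in each. Such a separation upwards was found for 12.4% of all genes in mutants and 9.23% in controls.

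Of the IGF genes, *Grb10* fell from 28698.5 ± 892 to 23965 ± 2522 in mutants and from 28458 ± 1134 to 23982 ± 1681 in controls (SD, n = 4), by 0.27 and 0.25 on the log2 scale (adjusted p = 0.0101 and 0.0297). The call of *Grb10* was kept in 8 of the 10 other planned settings in mutants (log2 difference -0.27 to -0.18). In controls it was also kept in 8 of 10 (-0.25 to -0.15). *Igf2r* fell in mutants, from 6127 ± 700.3 to 4730 ± 494 (log2 difference -0.37, adjusted p = 0.00292). In controls *Igf2r* was lower in all 4 E13.5 libraries, with a log2 difference of -0.24 that missed the threshold (adjusted p = 0.0673). It passed in the compared libraries alone, with the meningeal covariate and in DESeq2. *Igf2* and *H19* passed in neither in the main test, with log2 differences of -0.35 and -0.40 in mutants (adjusted p = 0.264 and 0.230), which were -0.05 and -0.06 without A1. *H19* passed without A2, and both passed, lower at E13.5, with the mean of the meningeal markers as a covariate (log2 differences -0.27 and -0.31, adjusted p = 0.0327 and 0.0249).

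*Dlk1* fell in mutants from 817 ± 437 to 264 ± 77.2 (SD, n = 4), a log2 difference of -1.54 (SE 0.363, adjusted p = 0.00426), with no overlap. In controls the difference was -0.36 (adjusted p = 0.562), and 0.01 without A15. *Meg3* fell by 0.78 in mutants (adjusted p = 0.0173) and differed by -0.59 in controls (adjusted p = 0.103). *Peg3* fell by 0.41 in mutants (adjusted p = 0.00232) and differed by -0.14 in controls. *Plagl1* rose by 0.33 in mutants (adjusted p = 0.0297), from 4711 ± 358 to 5996 ± 1196, against 0.07 in controls. The call of *Plagl1* was lost without A1, A2, A3, A9, A10 or A12, and that of *Meg3* without A4, A10 or A12. Over the 10 other planned settings the call in mutants was kept in 9 for *Plagl1*, 9 for *Peg3* and 10 for *Meg3*. The test of the difference between the age changes in mutants and controls is the one between the genotype changes at the 2 ages, and it called 0 of the 10 and 0.0% of all genes in limma, with 2 of the 10, *Dlk1* and *Peg3*, and 1217 of all genes under an unadjusted p of 0.05. edgeR and DESeq2 called 0 of the 10.

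Marker lists were read in the same libraries, beside 11.5% of all genes called with age in controls and 25.9% in mutants. Of 8 neuronal markers, led by *Map2*, 7 were higher at E13.5 in controls and 7 in mutants, and their sum was 27262 at E12.5 and 39321 at E13.5 in controls and 26711 and 39973 in mutants. Of 8 hem markers, 4 were lower in controls and 7 in mutants, with sums of 39098 and 22239 in controls and 44745 and 21963 in mutants. Of 11 erythroid markers, led by *Hbb-y*, 8 were lower in controls and 7 lower and 1 higher in mutants. Of 12 meningeal markers, 2 were higher and 1 lower in controls, and 2 higher and 5 lower in mutants. Of 9 choroid plexus markers, led by *Ttr*, 8 could be tested. By limma 0 were called in controls and 2 were higher in mutants. In controls 3 had an unadjusted p under 0.05 in limma, as had 26.7% of all genes. The sum was 23298.8 at E12.5 and 45786 at E13.5 in controls and 33638 and 58726.5 in mutants, with A1 at 7792. With the mean of the meningeal markers as a covariate, limma called 10 of the 10 genes with age in mutants and 4 in controls. Over the 10 other planned settings, this one among them, 2133 to 4702 of all genes were called in mutants and 0 to 2856 in controls. The part of the other cell types in the age differences of the 10 genes was not tested.

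Other imprinted genes were also examined. Of 64 others listed, 56 could be tested. In limma 0 were called between genotypes, with 5 under an unadjusted p of 0.05 in the *Sox1Cre* line at E13.5, 9 at E12.5 and 2 in the *NestinCre* line. Of the 16454 genes tested, 1932, 2217 and 1064 were under that p, and 0.924%, 0.723% and 0.0669% were called. edgeR called 0, and DESeq2 called 1 at E12.5, *Nnat*, named here after its values were seen. Over the planned settings other than the main one, DESeq2 among them, 76 to 294 of all genes were called at E12.5. With age, 6 were higher and 7 lower in controls, and 9 higher and 12 lower in mutants, beside the 11.5% and 25.9% of all genes called. The largest rises in controls were those of *Rasgrf1* (log2 difference 1.83), *Snurf* (1.01) and *Snrpn* (0.55), a splicing gene, and in mutants those of *Rasgrf1* (2.45), *Snhg14* (adjusted p = 0.0319) and *Inpp5f* (0.67). *Rasgrf1*, a guanine nucleotide exchange factor of neurons, was low in controls, from 3.91 to 8.77 normalized counts at E12.5 and from 7.93 to 56.4 at E13.5. The largest falls in controls were those of *Mirg* (-1.09), *Rian* (-0.78) and *Nap1l5* (-0.74), and in mutants those of *Dio3* (-2.10), *Mirg* (-1.44) and *Asb4* (adjusted p = 0.0139). *Dio3*, *Mirg* and *Rian* belong to the *Dlk1* and *Meg3* domain, and *Dio3* was at 33.7 ± 35.6 (SD, n = 4) at E12.5 and 4.94 ± 1.36 at E13.5 in mutants.

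Of 25 further genes of the IGF pathway, 21 could be tested and *Ins1* had no read. *Igfbp5*, which encodes an IGF binding protein and was the most abundant of the list, was the single one called between genotypes in limma, where 0.924% of all genes were called and 0.559% lower. It fell in E13.5 *Sox1Cre* mutants by 0.46 (SE 0.0920, adjusted p = 0.0133), with mutants at 6680, 9278.5, 7177 and 6668 and controls at 10345, 9081, 11360 and 10036. A2 again lay above A6. With age, 4 genes of the list were higher and 6 lower in controls, and 6 higher and 7 lower in mutants, where 6.33% and 5.17% of all genes were higher and lower in controls and 13.8% and 12.1% in mutants. *Htra1*, a protease that cleaves IGF binding proteins, rose most, by 3.56 in controls and 4.14 in mutants. *Pappa2* (0.95) and *Grb14* (1.04) came next in controls and mutants. *Irs4*, a receptor substrate, fell by 1.08 and 1.71, *Igf2bp1*, which binds *Igf2* mRNA, by 0.65 in controls and *Igfbp5* by 0.88 in mutants.

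Of 12 genes that keep imprints, 11 could be tested and *Dppa3* had no read. Between genotypes limma, edgeR and DESeq2 called 0. In limma 4, 2 and 0 were under an unadjusted p of 0.05 in the 3 comparisons. Of the 16454 genes tested, 1932, 2217 and 1064 were under that p, and limma called 0.924%, 0.723% and 0.0669%. *Dnmt3b*, a DNA methyltransferase, fell with age by 0.76 in controls and 0.93 in mutants (adjusted p = 0.0143 and 0.00166). In mutants, where 13.8% of all genes were called higher, 3 of the 11 rose, most of all *Atrx* (0.34), a chromatin remodeller, and *Arid4a* (0.30).

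**Figure D4:**
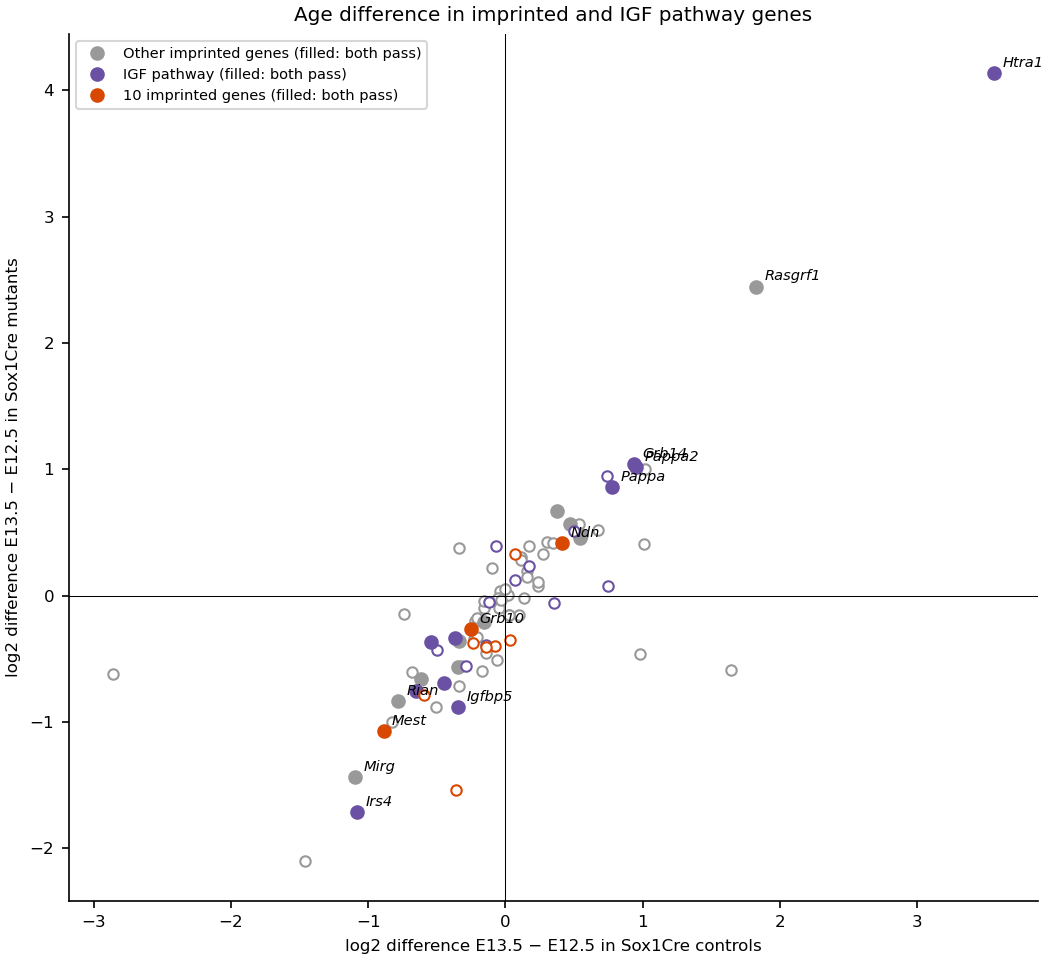
Log2 difference between E13.5 and E12.5 in *Sox1Cre* controls (horizontal) and mutants (vertical) for the 10 imprinted genes, 56 other imprinted genes and 21 IGF pathway genes. Filled points passed in both comparisons, which share no library. *Mest*, *Grb10* and *Ndn* are filled among the 10 genes, and *Htra1* and *Rasgrf1* are the largest rises that passed in both.

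Sex and age could be separated in mutants alone. Among mutants low in *Xist* (A1 and A4 against A9 and A12) *Mest* differed with age by -1.53 and *Ndn* by 0.56, and 8 of the 10 genes and 4116 of all genes were called. These 8 included *Igf2* and *H19* but not *Plagl1* and *Grb10*, and A1, lowest in *Igf2* and *H19*, is 1 of the 2 libraries at E13.5. Among those high in *Xist* (A2 and A3 against A10 and A11) *Mest* differed by -0.62 (adjusted p = 0.340) and *Ndn* by 0.28 (adjusted p = 0.272). There 0 of the 10 genes and 294 of all genes were called. For *Mest* and *Ndn* the sign was the same in both subsets, each with 2 libraries at each age. In controls, with log2 *Xist* as a covariate, limma called 0 of the 10 genes and 0 of all genes, with 2 and 2460 under an unadjusted p of 0.05. The log2 differences were then -0.69 for *Mest*, -0.15 for *Grb10* and 0.37 for *Ndn*, in the direction of those without it.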

How the data were processed

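RNA from dissected ARK was sequenced in 24 libraries. Per the labels and the study's methods, the authors trimmed reads with Trimmomatic 0.36, aligned them to GRCm38 with STAR 2.5.2a, counted genes with RSEM 1.2.31 and divided each library by a DESeq2 size factor, so the deposited signal is normalized counts for 51912 genes. This leaves values comparable between libraries for 1 gene but not between genes, unless divided by length. Within each library the values were whole multiples of 1 step, within a tolerance of 0.01, for 100% of genes. This gave the reads back, and total depth is that over genes.

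The 16454 genes that reached 10 normalized counts in 4 or more libraries were tested with limma 3.58.1 on log2(value + 1) with 6 group means and an intensity trend (18 residual degrees of freedom, R 4.3.3, two-sided), with Benjamini-Hochberg adjustment over all of them and a threshold of 0.05. All adjusted p values in the text are from limma unless edgeR 4.0.16 or DESeq2 1.42.0, run on the recovered reads, is named. Fold changes are on that log2 scale, which understates changes of low genes. Exact permutation tests used all 35 ways of dividing 8 libraries into 2 groups, with 0.0286 the smallest p. Replicates of a group differed by more than counting noise (chi-square per degree of freedom 8.24 to 78.0 over 36 pairs), so none was counted as a duplicate. The steps were tested on simulated counts. Gene names came from GENCODE M21 (51719 of 51912 matched).

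The 10 genes, the lists and the tests were chosen with earlier results of these data known. The 10 genes were all named. Of the called genes of other lists, those with the largest changes in each direction were named, at most 3 for imprinted genes and 2 for the IGF and imprint maintenance lists, with the 5 genes most like *Igf2*, *H19* and *Meg3*, and the most abundant marker and genes at 0 of each list. Values of each gene in a library were compared over libraries as log2 values with group means removed. Alternatives were other pseudocounts, filters, quantile normalization, the compared libraries alone, log2 *Xist* or the mean of meningeal markers as a covariate, edgeR, DESeq2, leaving out each library, and *Xist* subsets, the last added after seeing the data. No column of the table was left unused.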

Additional observations from a re-analysis of the deposited data

Results flagged for a closer look

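In 4 cases 1 library lay far from the other 3 of its group. *Mest* was at 27965 in the *NestinCre* mutant A18 and between 12225 and 13007 in the other mutants. It was at 18976 in the *NestinCre* control A22 and between 10761 and 11117 in the other controls. *Dlk1* was at 339 in A22, against 195 to 209.7 in the other *NestinCre* controls, and at 264 in the *Sox1Cre* control A5 at E13.5, against 188 to 200.4. Chance flags about 1 in 20 groups by this measure, and 60 groups of 4 values were looked at.

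Other genes that differed with age were read in the same libraries. *Htra1*, chosen here after its values were seen, was at 389 in A22 (1078 to 1812 in the other controls), at 288 in A18 (1480 to 1737) and at 243 in A5 (1622 to 3049). The sum of neuronal markers was 28392 in A22, against 33619 to 39372, and 30774 in A5, against 35886 to 46672. In A18 it was 34633, within the range of the other *NestinCre* mutants (33892 to 39864). The part of embryo age or dissection in these values was not tested.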

How the results depend on the processing

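Of the 10 genes, the number called in the *Sox1Cre* line at E13.5 went from 1 to 0 with quantile normalization and in the compared libraries alone, and was 0 to 1 on leaving out a library. At E12.5 it went from 0 to 2, *Dlk1* and *Plagl1*, with meningeal markers as a covariate and in DESeq2, and was 0 to 2 on leaving out a library (2 without A11, 1 without A15). With age in controls it went from 3 to 1 with no filter and to 0 with log2 *Xist* as a covariate, rose to 4 in the compared libraries alone, with the meningeal covariate and in DESeq2, and was 0 to 3 on leaving out a library (0 without A6, 1 without A7, A8 or A14). With age in mutants it went from 8 to 5 in the compared libraries alone and to 0 in libraries high in *Xist*, rose to 10 with the meningeal covariate, and was 6 to 8 on leaving out a library. It stayed at 0 in the *NestinCre* line, between control lines and for both differences of changes under every alternative run. The compared libraries alone leave fewer residual degrees of freedom and the *Xist* subsets fewer libraries; the other causes were not tested. The count over all genes was 152 in the *Sox1Cre* line at E13.5, 44 to 358 under other planned settings, 90 to 510 on leaving out a library and 510 without A1. It was 119 (76 to 294, and 50 to 139 on leaving out a library) at E12.5, 11 (2 to 37, and 2 to 7) in the *NestinCre* line, 1892 (0 to 2856, and 794 to 2629) with age in controls, 4263 (2133 to 4702, and 2948 to 4725) in mutants and 40 (22 to 157, and 11 to 31) between control lines. DESeq2 called 20 and 95 genes for the 2 differences of changes, against 0 and 7, and 144 were called for the second without A1. No paired analysis was possible because the labels number libraries singly and tie none across groups. Depth limits *Meg3* and *Dlk1* most.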
